A study of Mus musculus with 4 samples.

Results

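A set of 10 genes of the vascular endothelial growth factor (VEGF) system, the angiopoietin system and the endothelial growth factor output called angiocrine signalling were followed across the cell classes of mouse liver tumours. The members, 10 of the 17813 genes in the expression table, were taken by name: the ligands Vegfa, Angpt2, Hgf and Wnt2 and the receptors Kdr, Flt1, Flt4, Nrp1, Tek and Tie1. All 10 were present. Tumour-bearing livers came from 5-month-old C57BL/6 mice given diethylnitrosamine (DEN, a liver carcinogen) at 25 mg/kg in week 2 after birth and then carbon tetrachloride (CCl4, a liver toxin) at 0.5 ml/kg each week. There were 2 Miz1F/F samples, with floxed Miz1 alleles, and 2 Miz1Δhep samples, whose name denotes deletion of Miz1 in hepatocytes. All 4 samples shared the strain, the age, DEN and CCl4, and the labels name no Cre driver. Digested liver was run through the 10x Genomics 3' v2 droplet assay.

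VEGF ligands bind receptor tyrosine kinases on endothelial cells, where Kdr carries most of the growth signal, Flt1 can act as a decoy for VEGF-A, and Nrp1 is a co-receptor. The angiopoietins act on Tek (Tie2), and Tie1 is a related receptor that modulates it. In the liver, sinusoidal endothelial cells line the fenestrated capillaries, and endothelial cells near the central vein are known to make Wnt ligands and R-spondin 3, which set the zonation of hepatocytes. Hgf is best known in liver as a product of stellate cells and sinusoidal endothelial cells that acts on Met in hepatocytes.

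The stretch before the transcription start is shown for the 5 members whose RefSeq start lies within 10 bases of the GENCODE gene start, because it is where the endothelial receptors and the ligands found elsewhere can be set side by side. Each is 250 bases on GRCm38.p6, written 5′ to 3′ on the strand of the gene, from RefSeq. Capitals mark AGGAAG or its reverse complement CTTCCT, the core of ETS factor motifs with flanking bases.
Kdr (chr5:75978456-75978705, minus strand): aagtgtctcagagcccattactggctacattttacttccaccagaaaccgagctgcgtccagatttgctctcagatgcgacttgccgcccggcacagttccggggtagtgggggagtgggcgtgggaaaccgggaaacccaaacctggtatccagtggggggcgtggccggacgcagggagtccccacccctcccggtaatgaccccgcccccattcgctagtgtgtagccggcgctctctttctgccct
Flt1 (chr5:147726012-147726261, minus strand): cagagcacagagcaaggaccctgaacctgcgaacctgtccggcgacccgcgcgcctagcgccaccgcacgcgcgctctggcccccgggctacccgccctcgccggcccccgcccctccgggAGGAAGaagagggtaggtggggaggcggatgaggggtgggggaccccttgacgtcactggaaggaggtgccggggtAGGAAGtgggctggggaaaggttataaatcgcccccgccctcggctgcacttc
Tek (chr4:94739039-94739288, plus strand): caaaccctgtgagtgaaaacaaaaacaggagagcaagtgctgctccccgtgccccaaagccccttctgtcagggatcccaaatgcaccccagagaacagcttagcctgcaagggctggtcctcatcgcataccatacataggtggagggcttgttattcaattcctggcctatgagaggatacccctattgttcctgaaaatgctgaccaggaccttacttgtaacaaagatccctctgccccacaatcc
Vegfa (chr17:46032378-46032627, minus strand): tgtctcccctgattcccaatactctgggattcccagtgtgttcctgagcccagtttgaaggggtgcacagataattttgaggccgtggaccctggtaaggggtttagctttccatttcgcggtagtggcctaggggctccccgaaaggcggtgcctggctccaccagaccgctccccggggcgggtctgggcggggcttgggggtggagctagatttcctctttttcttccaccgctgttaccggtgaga
Hgf (chr5:16553245-16553494, plus strand): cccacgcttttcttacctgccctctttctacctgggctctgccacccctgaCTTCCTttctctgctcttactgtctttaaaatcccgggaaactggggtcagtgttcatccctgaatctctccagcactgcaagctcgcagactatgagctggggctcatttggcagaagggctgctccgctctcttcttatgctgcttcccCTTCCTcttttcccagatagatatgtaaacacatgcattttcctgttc

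The RefSeq table held windows for 9 of the 10 members, Angpt2 being the one not listed. In the window nearest the GENCODE start, searched on both strands, AGGAAG was found for 4 members: Flt1 at -129 and -53 and Nrp1 at -91 on the gene's strand, and Tie1 at -219 and Hgf at -199 and -48 on the other strand. Positions count the first base of the match from the RefSeq start of the window. That start lies 469 bases from the GENCODE start for Nrp1 and 212 bases from it for Tie1. Of all 32851 mouse windows of this length, 29.5% hold the motif, so its presence in these members and absence from the Kdr, Tek and Vegfa windows describes these letters only. On GRCm38 the protein-coding gene bodies span chr5:75932827-75978458 for Kdr, chr5:147561604-147726011 for Flt1, chr11:49609263-49652739 for Flt4, chr8:128358604-128503363 for Nrp1, chr4:94739289-94874976 for Tek, chr4:118471191-118490061 for Tie1, chr17:46016993-46032369 for Vegfa, chr8:18690263-18741562 for Angpt2, chr5:16553495-16620152 for Hgf and chr6:17988940-18030585 for Wnt2.

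The table held 24802 cells with 65920312 unique molecular identifiers (UMIs, each counting 1 RNA molecule). Barcodes carry 4 suffixes, called barcode sets 1 to 4, of 2574 to 11179 cells and 9093921 to 35033778 UMIs, with medians of 906 to 2648 UMIs per cell. No label or header links these suffixes to the 4 samples, so Miz1F/F and Miz1Δhep cannot be told apart in these values. The sets are no replicates of a group, and no p-values are given. In all, 373 barcodes occurred in more than 1 set (748 cells). Leaving those cells out kept each count of members given below. Clusters were made without the members and were named by markers into classes, so every class name means cells with such markers (endothelial-like, and so on). A level is the UMIs of a gene per 1000000 UMIs of a class in a set (CPM), given for sets with at least 20 cells of the class unless stated, and intervals are exact 95% Poisson intervals that cover counting error only. The assay counts RNA ends and gives no value per gene length, so levels of different members were not ranked against each other.

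Endothelial clusters held 2963 cells (11.9% of all). They comprised 2286 sinusoidal endothelial-like cells (84, 655, 331 and 1216 in sets 1 to 4), 119 vascular endothelial-like cells and 112 cycling cells. A further 43 cells formed a subcluster named Ccl21a/Nts by its leading genes, though only its cells of set 4 held Ccl21a. Another 403 cells with leukocyte markers were kept apart. The 7 sinusoidal markers summed to 7982 CPM in the sinusoidal cells and 1848 CPM in the vascular cells, and the 10 vascular markers to 822 and 3637 CPM. Sinusoidal cells of different sets fell into different subclusters. Subclusters mostly of set 4 held 95.2% of the sinusoidal cells of set 1 and 99.6% of those of set 4, but 1.68% and 0.604% of those of sets 2 and 3. Median depth also differed, at 2435, 1277, 886 and 3362 UMIs per sinusoidal cell in sets 1 to 4. The part of either in the differences between sets was not tested.

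Kdr (VEGFR2), the main signalling receptor for VEGF-A, reached 1957 CPM in the sinusoidal endothelial-like cells of set 1, 3225 CPM in set 2, 3179 CPM in set 3 and 1276 CPM in set 4. Sets 2 and 3 were alike, and set 4 was lowest. In vascular endothelial-like cells Kdr was at 1795, 1800.0 and 899.7 CPM in sets 2, 3 and 4, below the sinusoidal level of the same set each time. Outside endothelium, B cell-like cells, which should lack the receptor, held 0, 27.6, 19.4 and 22.0 CPM in sets 1 to 4. After each cell was thinned to 500 UMIs, Kdr was seen in 57.1% of sinusoidal cells (101 shallower cells left out) and in 1.01% of B cells, against 84.2% and 2.39% unthinned, with median depths of 1657 and 1172 UMIs. The B cell value served as a reference for free RNA in droplets, and the share of free RNA in other classes was not tested. In set 4 Kdr was at 57.3 CPM in neutrophil-like and 45.9 CPM in Kupffer cell-like cells. In set 1 it was at 43.1 CPM in plasmacytoid dendritic cell-like cells.

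Flt1 (VEGFR1), which binds VEGF-A and placental growth factor, was at 618.5, 810.8, 759.1 and 317.2 CPM in sinusoidal cells of sets 1 to 4. In vascular cells it was at 929.9, 830.8 and 328.6 CPM in sets 2 to 4, above the sinusoidal level of each set but with overlapping intervals. In the Ccl21a/Nts cells it was at 1106 CPM in set 2 (843.9 to 1423, 23 cells), 877.5 CPM in set 3 (528.3 to 1370.0, 13 cells) and 492.2 CPM in set 4 (296.3 to 768.6, 6 cells). These intervals overlap those of the sinusoidal cells of the same set in all 3 sets.

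Flt4 (VEGFR3), the receptor for VEGF-C, was at 269.5, 571.8, 641.9 and 336.4 CPM in sinusoidal cells of sets 1 to 4. The vascular cells held 281.1 CPM in set 2 (13 UMIs), 55.4 CPM in set 3 (2 UMIs) and 133 CPM in set 4 (68 UMIs). The sinusoidal cells were thus higher in all 3 sets, though set 3 rests on few molecules. Flt4 is also known from lymphatic endothelium. The Ccl21a/Nts cells had 0 UMIs of the lymphatic markers Prox1 and Pdpn. The 5 lymphatic markers, Ccl21a among them, summed to 2150.0 CPM in the 6 cells of set 4 and to 0 CPM in sets 1 to 3. The 1, 23 and 13 cells of sets 1 to 3 thus held no Ccl21a. The name stands for leading genes of the subcluster, and its Ccl21a part does not describe the cells of those sets. The Ccl21a/Nts cells carried Flt4 at 184.3, 230.9 and 233.1 CPM in sets 2 to 4. Their intervals lay below the sinusoidal ones in sets 2 and 3 and overlapped in set 4.

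Nrp1 (neuropilin 1), a co-receptor for VEGF-A and semaphorins, was at 512.5, 787.1, 661.5 and 406.5 CPM in sinusoidal cells of sets 1 to 4 and at 540.6, 470.8 and 355.9 CPM in vascular cells of sets 2 to 4. Sets 2 and 3 were again higher than sets 1 and 4 in sinusoidal cells. The Ccl21a/Nts cells had 645.1, 554.2 and 207.2 CPM in sets 2 to 4, with intervals that overlap the sinusoidal ones in each set.

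Tek (Tie2), the angiopoietin receptor, was at 278.3, 247.3, 321.0 and 173.7 CPM in sinusoidal cells of sets 1 to 4. In the Ccl21a/Nts cells it was at 534.5 CPM in set 2 (358.0 to 767.6), above the sinusoidal interval of that set (217.0 to 280.6). In sets 3 and 4 it was at 461.9 and 259.1 CPM on 10 UMIs each, with intervals that overlap the sinusoidal ones. In vascular cells it was at 237.9, 276.9 and 91.9 CPM in sets 2 to 4, with intervals that overlapped the sinusoidal ones in sets 2 and 3 on 11 and 10 UMIs. Tie1, the partner receptor of Tek, was at 212.1, 309.1, 396.3 and 193.5 CPM in sinusoidal cells. In vascular cells it was at 497.4, 526.2 and 244.5 CPM in sets 2 to 4. The vascular level of Tie1 was higher in each of these sets, with intervals that overlapped within a set but not over all sets (241.0 to 326.9 against 211.9 to 235.4 CPM). Kdr and Flt4 had the opposite order.

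**Figure D1:**
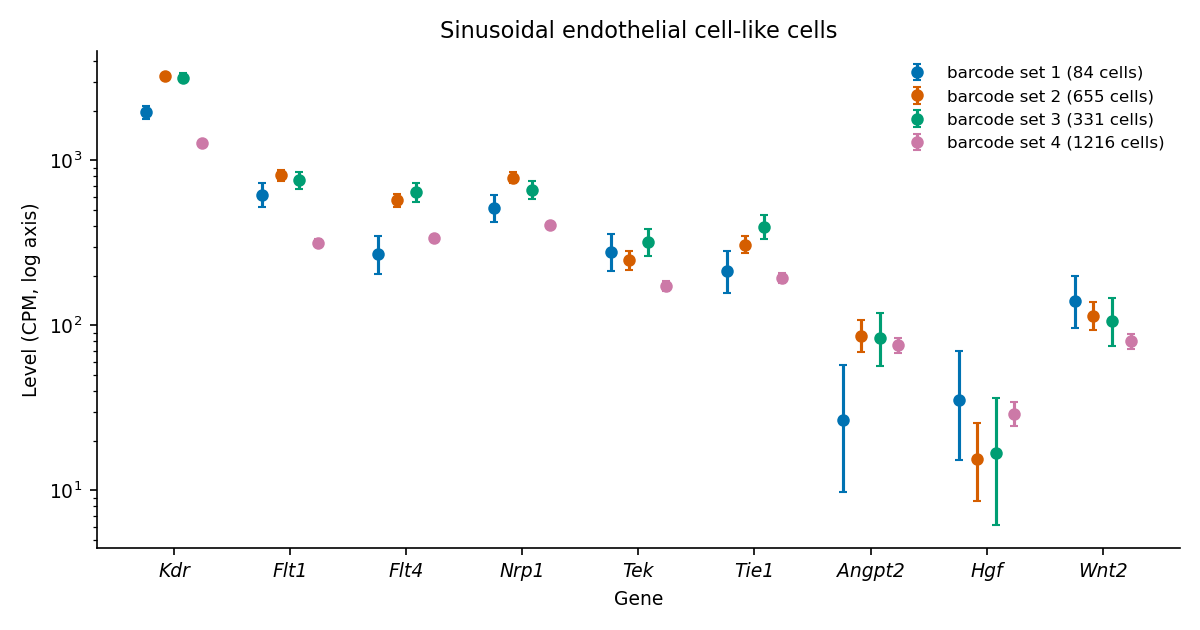
Level of 9 members in sinusoidal endothelial-like cells, in CPM on a log axis, for each barcode set. Points are values and bars are exact 95% Poisson intervals. Kdr runs from 1276 CPM in set 4 to 3225 CPM in set 2, and Angpt2 and Hgf have wide intervals in set 1, which has 84 cells. Vegfa is left out because it was at 0 CPM in set 1.

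Across classes, 7 of the 10 members (Kdr, Flt1, Flt4, Nrp1, Tek, Tie1 and Wnt2) were highest in an endothelial class in every set, beside 9.94% of the 10565 genes with at least 20 CPM in their highest class. Angpt2 missed this count because of set 3, where the unnamed cluster described below held 149 CPM on 6 UMIs. Vegfa and Hgf were highest elsewhere. The plot of median levels shows the receptors bright in the endothelial rows, Vegfa spread over myeloid, natural killer and epithelial rows, and Hgf bright in a single row.

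**Figure D2:**
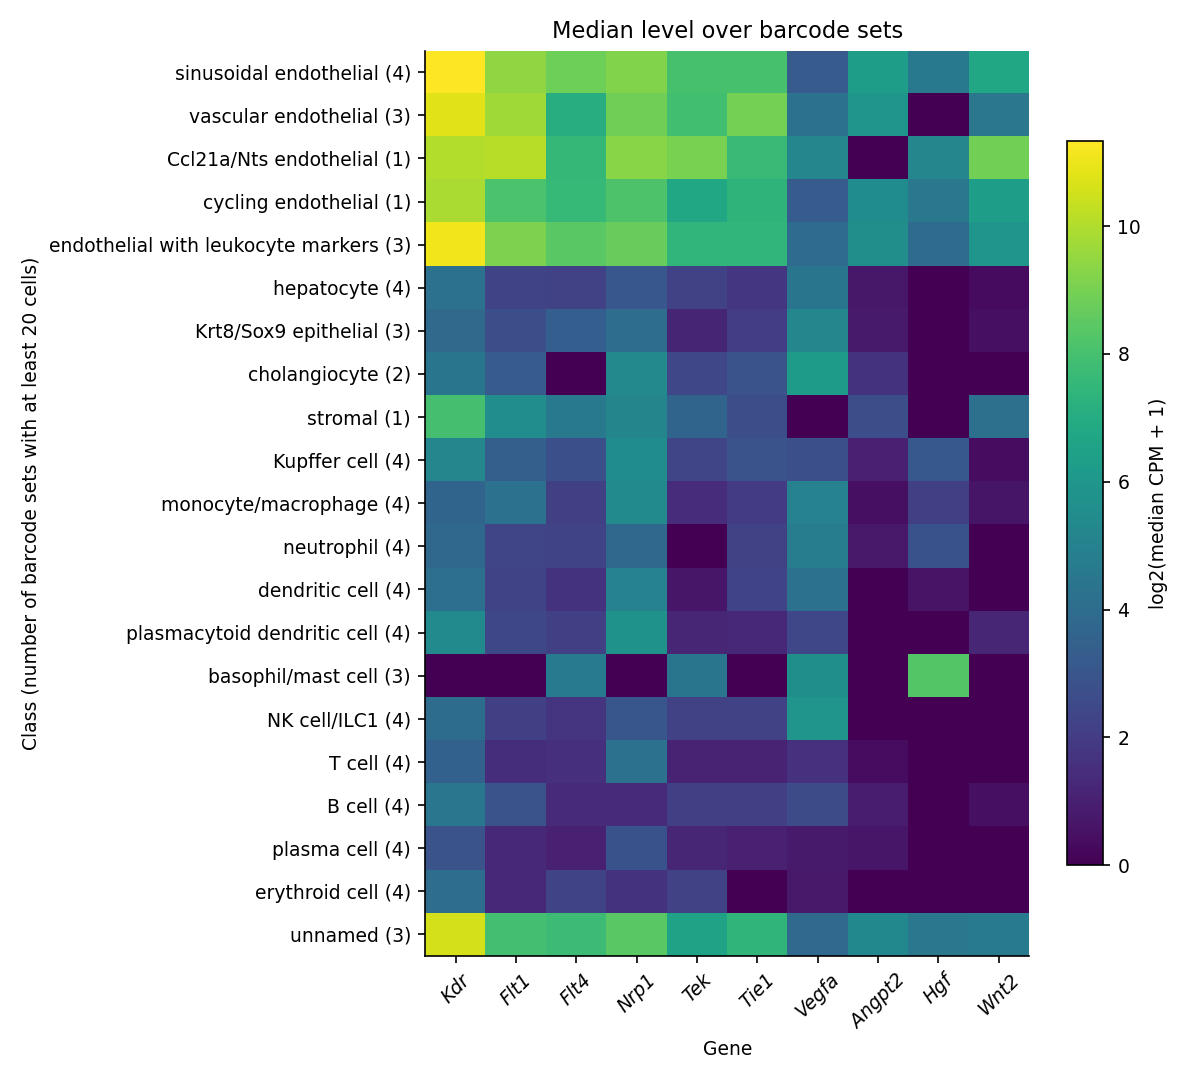
Median level over barcode sets, as log2(CPM + 1), of the 10 members (columns) in each class (rows, with the number of sets holding at least 20 cells of it). The 6 receptors are brightest in endothelial classes, Hgf in basophil/mast cell-like cells, and Kdr reaches 2568 CPM in sinusoidal endothelial-like cells.

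Endothelial-like cells were then set against all other cells in each of the 4 sets, as the log2 ratio of levels after adding 10 CPM to each. A gene was called where the ratio was at least 2-fold in the same direction in every set. Genes whose mean level was under 20 CPM were not tested. All 8 members that passed this filter were called higher, beside 14.4% of 6094 genes, and none was lower, beside 6.94%. The median log2 ratio was 4.26 over these members and 0.37 over all genes tested. Since each of the 8 passed the filter through its endothelial level, these counts are a description.

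Among the receptors, the log2 ratio of Kdr was 5.84 (3.96 to 6.51 over sets), with medians of 2322 CPM in endothelial-like and 43.6 CPM in other cells. The other cells include the unnamed cluster described below, which holds 1588 Kdr UMIs, and without it the log2 ratio was 6.49. Flt1 had 5.05 (3.66 to 5.45), with 667.5 against 11.0 CPM. Flt4 had 4.48 (3.64 to 5.37). Tek had 4.28 (3.35 to 4.73) and Tie1 4.24 (3.38 to 4.92). The added 10 CPM lowers the ratio most for genes with low levels in other cells, so the members are not ranked by it. Nrp1 had 4.17 (3.42 to 4.37), with 557.8 against 25.7 CPM, its level in other cells being shared by several leukocyte classes. Of the ligands, Wnt2 had 3.41 (2.94 to 3.94), with 111.6 against 0.779 CPM, and Angpt2 2.70 (2.05 to 2.84). Vegfa and Hgf lay below the filter, with log2 ratios of -0.48 and 1.22.

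Sinusoidal cells were set against vascular endothelial-like cells in sets 2, 3 and 4, where both had at least 20 cells. Of the 8 members tested, only Wnt2 was called higher, beside 0.892% of 6279 genes, and none was lower, beside 0.956%. Wnt2, a ligand of the canonical Wnt pathway, had a log2 ratio of 1.98 (1.62 to 2.69), with medians of 106.1 CPM in sinusoidal and 21.6 CPM in vascular cells. The vascular levels rest on 1, 1 and 2 UMIs in sets 2 to 4, which pool to 6.55 CPM with an interval of 1.78 to 16.8, and the ratio depends on the added 10 CPM. Flt4 was just short of the call at 1.28 (0.999 to 3.32), and passed it without set 2 (2.30). Kdr was at 0.82 (0.50 to 0.84), Nrp1 at 0.48, Angpt2 at 0.37, Tek at 0.21, Flt1 at -0.13 and Tie1 at -0.40 (-0.67 to -0.32). Tie1 was thus lower in sinusoidal cells in all 3 sets, but within 2-fold.

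The vascular cells were not uniform. A subcluster of 49 cells led by Mgp and Gja5, a connexin of arteries, held 0 UMIs of Angpt2, 544.1 CPM of Kdr and 372.3 CPM of Tie1. A subcluster of 70 cells led by Igfbp3 and Sparcl1 held Angpt2 at 80.2 CPM (55.9 to 112), Kdr at 1217 CPM and Tek at 80.2 CPM. Set 4 was the one set with at least 20 cells of either. A 2-fold difference there is a cut in that set alone, and no share of all genes is given beside it. Against the Mgp/Gja5 cells the log2 ratio of sinusoidal over vascular cells was 2.40 for Kdr, 2.04 for Flt4, 3.10 for Angpt2 and 3.17 for Wnt2. Vegfa was higher in the Mgp/Gja5 cells, on 6 UMIs. Against the Igfbp3/Sparcl1 cells the log2 ratio was 1.13 for Flt4, 1.21 for Tek and 2.59 for Wnt2. Wnt2 passed 2-fold against either subcluster, but the 71 vascular cells of set 4 held 2 Wnt2 UMIs in all. Both Wnt2 ratios thus depend on the added 10 CPM. Kdr and Angpt2 passed 2-fold only against the Mgp/Gja5 cells, and Tek only against the Igfbp3/Sparcl1 cells. These subcluster values were computed after the main ones were seen.

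Angpt2 (angiopoietin 2), a ligand of Tek that endothelial cells store and release, was at 26.5 CPM in sinusoidal cells of set 1 (6 UMIs), 86.5 CPM in set 2, 83.7 CPM in set 3 and 75.6 CPM in set 4. Sets 2 to 4 overlapped in their intervals. Among sinusoidal subclusters it was highest in 191 cells led by Ctgf, at 140.4 CPM (105.2 to 183.7), and next in 352 cells led by Hspa1a and Isg15, a heat shock and an interferon-induced gene, at 100.4 CPM (86.5 to 115.9). In the Ccl21a/Nts cells it was at 8.43 CPM on 1 UMI. Angpt1, the other main Tek ligand, was at 0 CPM as a median in sinusoidal, vascular, Ccl21a/Nts and cycling endothelial cells and highest in cholangiocyte-like cells, at 49.2 CPM.

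Wnt2 was at 141.4, 114.4, 106.1 and 80.1 CPM in sinusoidal cells of sets 1 to 4, with set 4 lowest. The Ccl21a/Nts cells held far more, 573.1 CPM (445.0 to 726.5) on 68 UMIs, against 88.99 CPM (81.8 to 96.7) in the pooled sinusoidal cells. In the single sets they had 7, 26, 8 and 27 UMIs of Wnt2 in 1, 23, 13 and 6 cells, so every set contributed. Within sets 2, 3 and 4 the levels were 479.2, 369.5 and 699.4 CPM, and each interval lies above that of the sinusoidal cells of the same set. After thinning, 18.6% of them had a Wnt2 UMI (8.39% to 33.4%, exact binomial), against 3.20% of sinusoidal and 0.0512% of B cells, and unthinned these shares were 51.2%, 12.1% and 0.0889%.

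The same 43 cells held Rspo3, which encodes the Wnt amplifier R-spondin 3, at 2419 CPM (2147 to 2715), against 46.1 CPM in sinusoidal cells and 9.82 CPM in vascular cells. In sets 2, 3 and 4 it was at 2083, 2817 and 2668 CPM, against 77.3, 61.4 and 26.3 CPM in the sinusoidal cells of the same set. Wnt9b, another Wnt ligand, was at 177.0 CPM (109.5 to 270.5), against 3.01 CPM in sinusoidal cells and 0 UMIs in vascular cells. Vwf, a marker of large vessels, was at 514.1 CPM and Kit at 252.8 CPM. Wnt2, Rspo3 and Wnt9b were left out when the cells were clustered. With 98 cells at a finer clustering, Wnt2 was at 525.9 CPM over all sets, and with the members kept for clustering it was at 556.1 CPM in 96 cells. Haemoglobin and other erythroid markers summed to 6995 CPM in these cells and hepatocyte markers to 2115 CPM, against 2441 and 3590 CPM in sinusoidal cells, and their part was not tested.

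Within sinusoidal cells Wnt2 and Angpt2 were not distributed alike. Wnt2 was highest in 460 cells led by Cyp26b1 (174.1 CPM, 142.4 to 210.8) and in 518 cells led by Rab3b and Lgals1 (136.5 CPM, 122.6 to 151.4). It was lowest in the Ctgf-led cells (23.9 CPM on 9 UMIs) and the Hspa1a/Isg15-led cells (17.2 CPM on 32 UMIs), the subclusters where Angpt2 was highest. Rspo3 followed Wnt2, at 116.1 and 61.7 CPM in the first pair and 15.9 and 1.61 CPM in the second. The Cyp26b1-led and Ctgf-led cells were mostly of set 2 (445 of 460 and 181 of 191), and the Rab3b-led and Hspa1a/Isg15-led cells mostly of set 4 (472 of 518 and 330 of 352), so a subcluster with much Wnt2 and one with little occurred in each. Over the 10 subclusters the Pearson correlation with Wnt2 was 0.92 for Rspo3, 0.80 for Wnt9b and 0.82 for Kit, and for Angpt2 with Rspo3 it was -0.32. The subclusters share libraries and depth, and the highest Wnt2 value is 1 point, so these are descriptions.

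**Figure D3:**
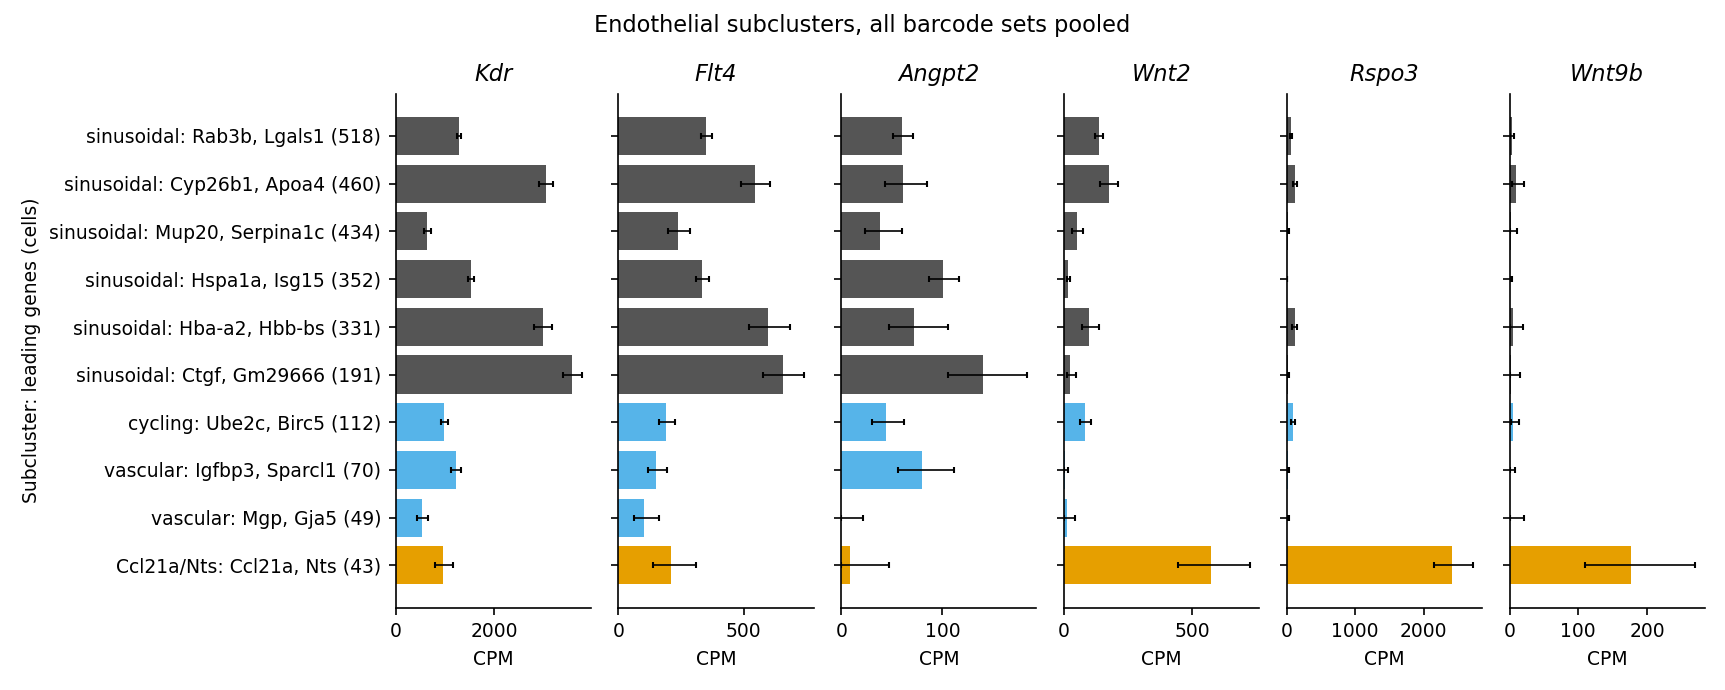
Level in CPM of 4 members, and of Rspo3 and Wnt9b, in 10 endothelial subclusters named by their leading genes (cell numbers in brackets), all sets pooled. Bars start at 0 and error bars are exact 95% Poisson intervals. In the Ccl21a/Nts subcluster only the cells of set 4 held Ccl21a. Wnt2 reaches 573.1 CPM and Rspo3 2419 CPM in the Ccl21a/Nts cells, while Angpt2 is highest in the Ctgf-led sinusoidal cells at 140.4 CPM.

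Vegfa (VEGF-A), the main ligand of Kdr and Flt1, was low in endothelium, at 0, 13.4, 16.8 and 3.57 CPM in sinusoidal cells of sets 1 to 4 and 21.6, 0 and 17.6 CPM in vascular cells of sets 2 to 4. B cells, the reference for free RNA, held 0, 8.94, 6.92 and 3.32 CPM. Vegfa was highest as a median in cholangiocyte-like cells, at 103.2 CPM in set 3 (16 UMIs) and 42.6 CPM in set 4 (10 UMIs). These bile duct cells rest on 32 and 49 cells, and their intervals overlap.

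In NK cell/ILC1-like cells, innate lymphocytes, Vegfa was at 15.4, 103.6, 98.6 and 20.9 CPM in sets 1 to 4. The values of sets 2 and 3 lie above those of sets 1 and 4 with no overlap of intervals. Their median depths were 2815, 917, 822 and 2057 UMIs per cell, so the deeper sets held the lower levels, and the part of depth was not tested. After thinning, 3.29% of these cells had a Vegfa UMI against 0.205% of B cells, and unthinned 7.11% against 0.489%. T cell-like cells, the nearest lymphocytes, held 0.732 to 5.19 CPM, below the NK cell/ILC1 value of the same set each time.

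Myeloid cells carried Vegfa as well. Monocyte/macrophage-like cells held 17.7, 61.3, 34.0 and 28.4 CPM in sets 1 to 4 and neutrophil-like cells 16.1, 54.4, 26.0 and 25.5 CPM, with set 2 highest and set 1 lowest in both. Dendritic cell-like cells held 12.6 to 19.6 CPM. Kupffer cell-like cells, the resident macrophages, held only 6.17, 11.2, 0 and 5.27 CPM, near the B cell level. Basophil/mast cell-like cells had a median of 48.6 CPM, on 2, 2 and 0 UMIs in sets 2 to 4, too few to place.

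Hepatocyte-like cells held Vegfa at 12.9, 15.7, 44.6 and 24.7 CPM in sets 1 to 4, and the Krt8/Sox9 epithelial cells, a cluster with duct and progenitor markers, at 36.7, 40.6 and 26.1 CPM in sets 2 to 4. Set against hepatocytes in those sets, Vegfa had a log2 ratio of 0.06 (-0.11 to 0.86) in the Krt8/Sox9 cells, with medians of 36.7 and 24.7 CPM. The ratio was below 0 only in set 3, where the hepatocyte level rests on 6 UMIs in 50 cells (16.36 to 97.02 CPM). In set 2 the intervals did not overlap (28.6 to 46.35 against 10.61 to 22.44 CPM), and in set 4 they did. Kdr, the other member tested, had a log2 ratio of -0.28. None of the 2 was called, beside 6.38% of 5154 genes called higher and 4.79% lower. Pooled, the Krt8/Sox9 cells held 32.5 CPM (28.2 to 37.2) and the hepatocytes 20.3 CPM (16.5 to 24.7), intervals that do not overlap although the order differs between single sets. The Krt8/Sox9 cells were deeper, with a median of 6252 UMIs per cell against 1560. Of them 20.9% had a Vegfa UMI unthinned and 2.09% (1.20% to 3.37%, exact binomial) thinned. In hepatocytes these shares were 7.24% and 0.947% (0.455% to 1.74%), and the thinned intervals overlap.

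Hgf (hepatocyte growth factor) had its highest level in basophil/mast cell-like cells, at 315.9 CPM in set 2 (13 UMIs in 56 cells), 521.3 CPM in set 3 (16 UMIs in 33 cells) and 201.5 CPM in set 4 (20 UMIs in 45 cells). The 5 cells of set 1 held 4 UMIs. Over all sets this came to 267.7 CPM (200.5 to 350.2) on 53 UMIs. After thinning, 13.7% of these cells had an Hgf UMI against 0.0171% of B cells, and unthinned 25.9% against 0.0445%. Sinusoidal markers summed to 146.5 CPM in the basophil/mast cells, against 176.6 CPM in B cells, and general endothelial markers to 191.9 against 151.8 CPM. The basophil/mast cells held 3 Kdr UMIs in all.

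Sinusoidal endothelial-like cells held Hgf at 35.3, 15.5, 16.8 and 29.2 CPM in sets 1 to 4, with intervals that overlapped between all sets. Vascular endothelial-like cells held 0, 0 and 1.96 CPM in sets 2 to 4, that is 1 UMI in 119 cells against 168 UMIs in 2286 sinusoidal cells. In set 4 the intervals do not overlap (up to 10.9 CPM against 24.6 to 34.5 CPM), and in sets 2 and 3 they do. Cycling endothelial cells held 24.7 CPM on 18 UMIs, close to the sinusoidal level.

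Kupffer cells held Hgf at 8.22, 4.47, 14.3 and 7.13 CPM and neutrophils at 8.78, 3.63, 8.66 and 3.19 CPM in sets 1 to 4. No Hgf UMI was found in hepatocyte, Krt8/Sox9, cholangiocyte, NK cell/ILC1 or T cell-like cells. A count of 0 (taken as 3 UMIs) allows up to 0.609 CPM in hepatocytes, 0.475 CPM in Krt8/Sox9 cells and 6.81 CPM in cholangiocytes. The stromal cluster, which holds the stellate and fibroblast markers, had 61 cells. Its 47 cells in set 3 had 0 Hgf UMIs, while 10 cells of set 2 and 4 of set 4 had 3 and 10 UMIs. The stromal cells of sets 2 and 4 also carried Kdr at 1059 and 1529 CPM, against 250.5 CPM in set 3. In set 4 their Hgf level was 278.1 CPM (133.3 to 511.4), against 29.2 CPM in sinusoidal cells, where Kdr was at 1276 CPM. Pooled, stromal cells had 0.102 Hgf UMIs per Kdr UMI (0.0531 to 0.181, exact binomial), against 0.0156 (0.0133 to 0.0181) in sinusoidal cells. The 37 cells of the cluster with at least 4 stromal markers held 13 Hgf UMIs, but also 112 Kdr UMIs (580.5 CPM). Only 5 of the 61 stromal cells had an Hgf UMI. The part of endothelial RNA was not tested.

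**Figure D4:**
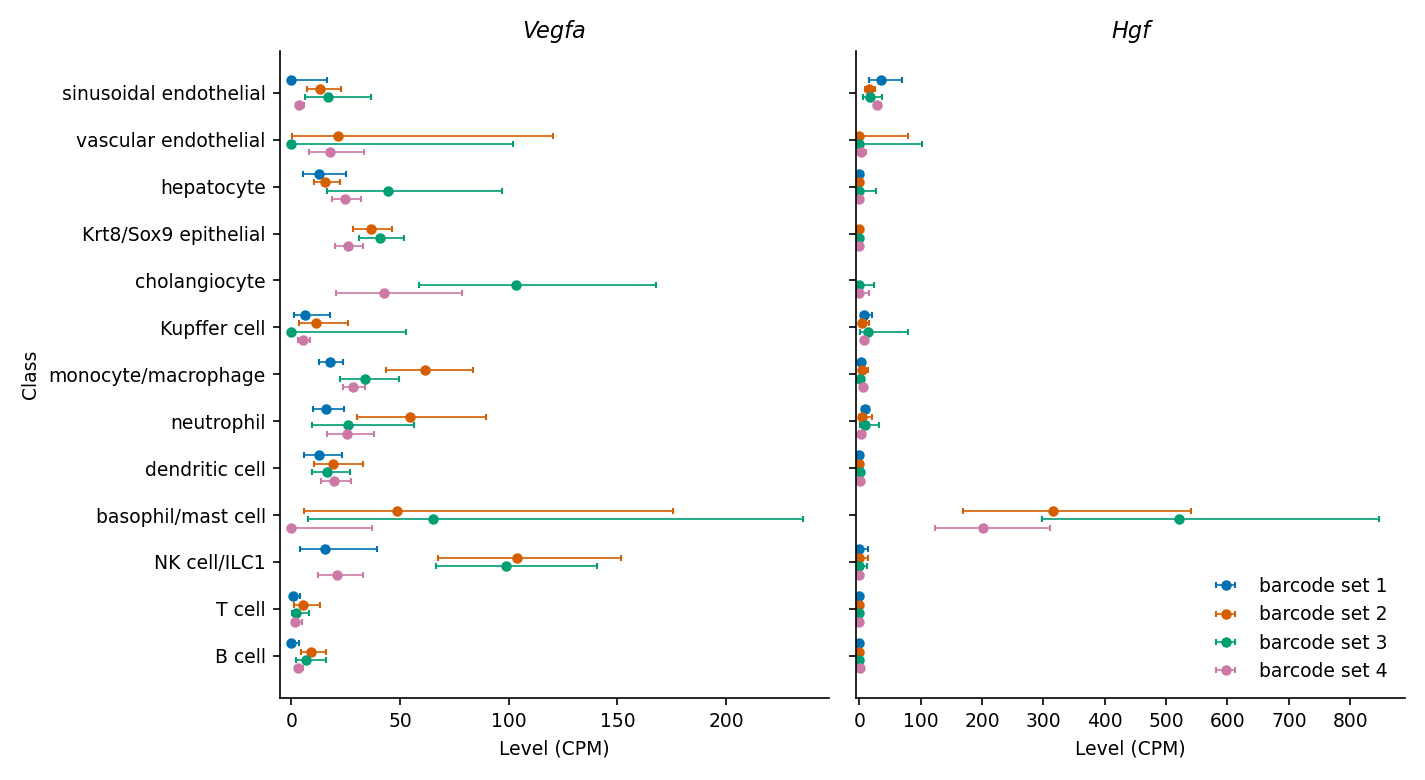
Level in CPM of Vegfa and Hgf by class (rows) and barcode set (colours), for sets with at least 20 cells of the class. Bars are exact 95% Poisson intervals. Vegfa in NK cell/ILC1-like cells is near 100 CPM in sets 2 and 3 (103.6 and 98.6) and lower in sets 1 and 4 (15.4 and 20.9), and Hgf stands out in basophil/mast cell-like cells at 201.5 to 521.3 CPM.

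Because droplets carry free RNA, receptor UMIs outside endothelium were also given as a ratio to Kdr UMIs of the same cells. In sinusoidal cells there were 0.283 Nrp1 UMIs per Kdr UMI (0.272 to 0.295, exact binomial) and 0.251 Flt1 UMIs per Kdr UMI (0.241 to 0.262). Hepatocytes lay near both, at 0.333 (0.238 to 0.460) and 0.216 (0.143 to 0.316). B cells had 0.132 (0.0804 to 0.206) for Nrp1, below the sinusoidal ratio, and 0.281 (0.199 to 0.391) for Flt1. For Tie1 the B cell ratio was above the sinusoidal one, at 0.234 against 0.131 with no overlap of intervals. The B cell reference itself thus did not keep the sinusoidal ratios, so the ratios are given as a description. A ratio away from the sinusoidal one does not tell free RNA from the RNA of the cells.

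For Nrp1, 9 of 15 non-endothelial classes had an interval above the sinusoidal one, against 1 for Flt1, 1 for Flt4, 2 for Tek and 3 for Tie1. Monocyte/macrophage-like cells had 261 Nrp1 UMIs for 87 Kdr UMIs, a ratio with an interval of 2.35 to 3.87. It was 1.74 in dendritic cells, 1.37 (1.01 to 1.85) in plasmacytoid dendritic cells, the interferon-producing dendritic cells, and 0.835 (0.671 to 1.04) in Kupffer cells. In levels, plasmacytoid dendritic cells held Nrp1 at 29.6, 80.8, 76.3 and 26.2 CPM, Kupffer cells at 45.2, 42.5, 57.0 and 34.7 CPM and monocyte/macrophage-like cells at 21.6, 52.1, 59.2 and 28.9 CPM in sets 1 to 4. Each of these levels lies above that of B cells in the same set, which was at most 4.06 CPM.

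For Flt1, monocyte/macrophage-like cells were the single class of the 15 with an interval above the sinusoidal one, at 1.45 (1.09 to 1.93). Their Flt1 levels were 16.2, 19.9, 27.7 and 11.4 CPM in sets 1 to 4, on 42 UMIs in set 1 where Kdr had 4. B cells held Flt1 at 0, 7.31, 9.69 and 5.73 CPM, below the monocyte/macrophage value in each set. Within this class Flt1 was higher in the cluster led by the monocyte genes Chil3 and Lyz2, at 20.2 CPM (16.7 to 24.3) than in the macrophage cluster led by Gpnmb and Ms4a7, at 3.84 CPM (1.84 to 7.06). The order held in all 4 sets, at 21.2 against 3.99, 33.6 against 10.4, 44.9 against 0 and 14.7 against 2.58 CPM. Nrp1 was higher in the Gpnmb/Ms4a7 cluster, at 44.6 CPM (36.8 to 53.4) against 25.3 CPM (21.4 to 29.8), and in each set. Both receptors were thus found in the monocyte cluster, and Flt1 was lower in the macrophage cluster.

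**Figure D5:**
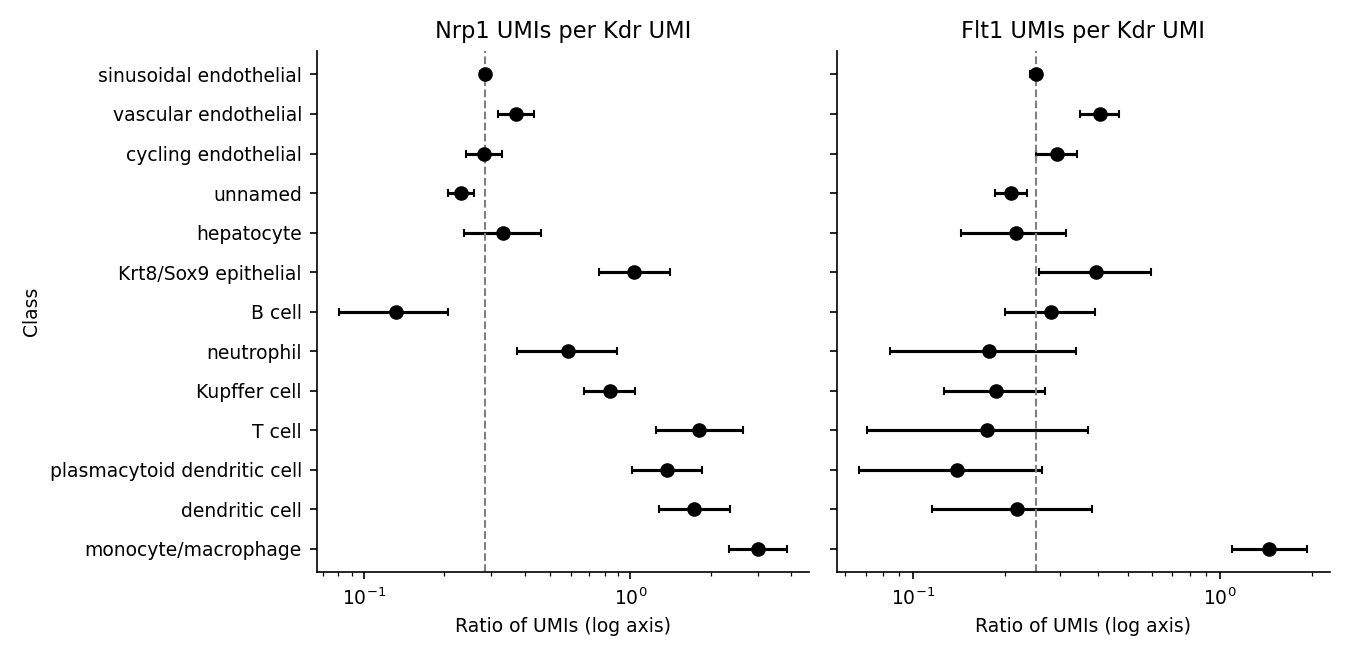
UMIs of Nrp1 (left) and Flt1 (right) per Kdr UMI of the same class on a log axis, all sets pooled, with exact 95% intervals. The dashed line is the ratio in sinusoidal endothelial-like cells (0.283 and 0.251). Nrp1 lies right of it in most leukocyte classes shown, and Flt1 in monocyte/macrophage-like cells at 1.45.

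Kupffer cells set against monocyte/macrophage-like cells in all 4 sets gave 2 members above the filter. Kdr was called higher in Kupffer cells, with a log2 ratio of 1.22 (1.03 to 1.30) and medians of 37.2 and 11.6 CPM, beside 3.88% of 5134 genes, and Nrp1 was at 0.08 (-0.24 to 0.81). None was called lower, beside 1.99%. The sum of the sinusoidal marker list was 283.9 CPM in Kupffer cells and 313.6 CPM in monocyte/macrophage-like cells, while the vascular list had 42.5 and 17.9 CPM and the general endothelial list 509.3 and 74.4 CPM. Endothelial RNA other than the sinusoidal list thus moved with Kdr here, and its part was not tested. The Kdr call was lost in 6 of the processing alternatives, and without set 2 or set 4. Vegfa and Flt1 lay below the filter, at -1.54 and -0.57.

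One cluster of 376 cells carried markers of both Kupffer and sinusoidal endothelial cells and was left unnamed. It held Kdr at 1182, 1527, 1738 and 1201 CPM in sets 1 to 4 (9 cells in set 1), within the range of the endothelial classes. Nrp1 was at 294.9 CPM and Flt1 at 265.9 CPM over all sets. Its ratio of Nrp1 to Kdr was below the sinusoidal one. Whether these droplets hold cells of both types was not tested.

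The rest of the pathway was read from a list of 88 genes, 87 of which were in the table, and 73 of them reached 20 CPM in a class. In the comparison of endothelial-like with all other cells, 28 of 42 tested were called higher, beside 14.4% of 6094 genes, and 5 lower, beside 6.94%. The list was chosen by role, with endothelial angiocrine genes and regulators among the roles. Earlier results of these data were known at that time. These counts, and those by role below, are thus a description. Among VEGF co-receptors and modulators 9 of 12 were higher and 1 lower. They included the phosphatase gene Ptprb (log2 ratio 5.81), whose product acts on Tek, and Esm1 (5.16), and Ptprj was lower (-1.68). The VEGF-C gene, Vegfc, was the one VEGF ligand tested and was higher (2.09), with its highest level, 249.3 CPM, in vascular cells.

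Of the Wnt genes 4 of 5 tested were higher, Rspo3 (4.02), the receptor genes Fzd4 (3.50) and Lrp5 (1.92), and Wls (2.60), which encodes the carrier that Wnt ligands need for secretion. Of the other angiocrine genes and regulators 14 of 18 were higher, led by Bmp2 (5.23) and Ramp2 (4.79), and Cxcr4 was lower (-1.50). Neither of the 2 angiopoietin partners tested was called. Of the genes around Hgf, none of 4 was higher and 3 were lower, F12 (-2.03), Plaur (-1.74) and Hpn (-1.73). No gene of the Hgf group had its highest level in an endothelial class. Met, the Hgf receptor gene, was highest in cholangiocyte-like (59.98 CPM) and Krt8/Sox9 cells (47.7 CPM), where no Hgf UMI was found, and Hgfac, encoding an Hgf-activating protease, was highest in hepatocytes (156.4 CPM).

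Between sinusoidal and vascular cells, 2 of 43 pathway genes were higher in sinusoidal cells, beside 0.892% of 6279 genes, and 5 lower, beside 0.956%. The 2 higher ones were Kit (2.59) and Bmp2 (2.35). The 5 lower ones were the Notch ligand gene Jag1 (-3.28), the Notch target Hey1 (-2.81), Vegfc (-2.40), Apln (-1.92) and Cxcr4 (-1.77). Vegfc, a ligand of Flt4, thus had medians of 39.1 CPM in sinusoidal and 249.3 CPM in vascular cells, where Flt4 had 571.8 and 133.0 CPM. Kit was at 21.6, 0 and 35.2 CPM and Apln at 86.5, 55.4 and 226.9 CPM in vascular cells of sets 2 to 4. In those cells 1 UMI is 21.6 CPM in set 2 and 27.7 CPM in set 3, so both calls rest on few molecules in these sets. The other calls share this limit in sets 2 and 3. For instance, vascular cells there held Bmp2 at 173.0 and 83.1 CPM, Hey1 at 194.6 and 138.5 CPM and Cxcr4 at 129.7 and 276.9 CPM. Between Krt8/Sox9 cells and hepatocytes, 4 of 21 were higher, beside 6.38% of 5154 genes, and 2 lower, beside 4.79%. The higher ones were Plat (2.64), Klf4 (2.56), Plaur (1.61) and Notch1 (1.59), and Hgfac was among those lower (-1.47). Between Kupffer and monocyte/macrophage-like cells, none of 18 was higher, beside 3.88% of 5134 genes, and Plaur was lower (-1.95), beside 1.99%.

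Genes with the class pattern most like each member were found by Pearson correlation of log2(median CPM + 10) over 19 classes, which share libraries and depth. Each of the 7 members highest in endothelium had its 3 nearest genes at 0.946 or above. For Kdr these were Esam (0.978), Tmem204 (0.976) and Sox18 (0.974), and for Tie1 Shroom4 (0.993), Emcn (0.992) and Fgd5 (0.992). Flt1 was nearest to Ptprb (0.988), Flt4 to Hecw2 (0.968), Nrp1 to Plxnd1 (0.958), Tek to Sox7 (0.981) and Wnt2 to Itga8 (0.982). Angpt2 was nearest to Fam57a (0.995). Vegfa had the least alike neighbours, Nab1 (0.779), Hhex (0.779) and Cd9 (0.756), and Hgf was nearest to Btbd19 (0.923), Slco2b1 (0.920) and Slc18a2 (0.919).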

How the data were processed

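Single-cell RNA was measured in 4 samples, pooled by the submitters in a single table of 24802 cell columns. The submitters' processing notes name mm10, Seurat, Cell Ranger and CASAVA 1.8, with no filters stated. The deposited values are the natural log of 1 plus UMIs per 10000 UMIs of the cell, read from the values, which sum to 10000 in every cell once turned back. Divided by the smallest one in the cell, all values above 0 came out whole (tolerance 0.001), which gave back the UMIs. None of the 24802 columns could be given to one sample, so the planned edgeR genotype test was not run. The fewest genes in a cell were 201.

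Cells were clustered in scanpy 1.11.5 (2000 variable genes without the members and pathway list, 30 principal components, 15 neighbours, Leiden 1.0, seed 1, no batch integration) into 27 clusters, and endothelial cells with 20 components into 15 subclusters. Clusters were named from marker lists, and those with markers of a second lineage were set apart. Scrublet called 9 doublets, too few for the caller to have worked, and none were removed. Calculations used Python 3.11.15, numpy 2.4.6, scipy 1.17.1 and pandas 2.3.3. The pair comparison was tested on simulated data with counting error only, and with changes larger than 2-fold in genes above the filter. That test does not cover calls that rest on few UMIs or lie near 2-fold. Promoters are from RefSeq and gene positions from GENCODE on GRCm38.

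The members and lists were chosen with earlier results of these data known. Named genes are all members, at most 4 genes per role of the pathway list, at most 4 called genes per direction in each comparison and the 3 most alike genes. Where 5 or fewer genes of a role were called, all were named after their values were seen. Rspo3, Wnt9b, Kit and Vwf, and all subcluster values, were singled out after their values were seen. Depth was 9093921 to 35033778 UMIs per set, so 1 UMI in a small class is several CPM. Alternatives changed the clustering, the cells, the pseudocount of 10 CPM, the filter of 20 CPM and the sets used.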

Additional observations from a re-analysis of the deposited data

Results flagged for a closer look

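Kdr in the unnamed cluster with Kupffer and endothelial markers was at 1276 CPM, from cells that belong to no named class and entered the comparisons only among the other cells. It rests on 1588 UMIs in 376 cells. The control samples cannot be told apart from the others in these values.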

How the results depend on the processing

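The count of members highest in an endothelial class in every set was 7 and lay between 7 and 8 without 1 set. The count higher in endothelial-like than in other cells was 8 without any 1 set. In sinusoidal against vascular cells, 1 member was called (1 to 2 without 1 set). It was 2 with at least 500 genes per cell, with a pseudocount of 1 CPM, with no filter, and without the sinusoidal subclusters led by hepatocyte or haemoglobin genes. It was 0 with a filter of 100 CPM, 4 higher and 1 lower with the Mgp/Gja5 cells alone and 3 with the Igfbp3/Sparcl1 cells alone. The subcluster alternatives, and those without the unnamed cluster or shared barcodes, were chosen after seeing the data. For Krt8/Sox9 cells against hepatocytes the count of 0 became 1 without cells with markers of 2 lineages. For Kupffer against monocyte/macrophage-like cells the count of 1 (0 to 1 without 1 set) was 0 at Leiden 2.0, with the mean over cells, with at least 500 genes, with a pseudocount of 50 CPM, with a filter of 100 CPM and with the median of all genes set to 0. Without cells with markers of 2 lineages, Angpt2 in endothelial-like against other cells reversed to -0.34. That setting removed 22536 of 24802 cells, left 37 sinusoidal cells and 1 vascular cell, and so gave no sinusoidal against vascular value. The cause of the other changes was not tested. Without shared barcodes, Wnt2 in the Ccl21a/Nts cells of set 2 was 453.4 CPM in place of 479.2, and without set 2 no set held 20 of these cells. No paired analysis was possible because the columns carry no sample or replicate number. Depth limits Vegfa, Hgf, Angpt2 and Wnt2, whose levels rest on under 30 UMIs in many classes and sets, as do those of Tek and Tie1 in most classes and sets outside endothelium.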
